A study of Mus musculus with 8 samples.

Results

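The Abcc genes encode the C subfamily of ATP-binding cassette (ABC) transporters, to which multidrug resistance protein 4 (MRP4, gene Abcc4) belongs. Probes were taken when their accession mapped to Abcc1, Abcc2, Abcc3, Abcc4, Abcc5, Abcc6, Abcc8, Abcc9, Abcc10 or Abcc12, and this gave 20 of the 56605 probes on the array, with at least 1 probe for each of the 10 genes. Whole retinas came from mice aged 46 to 55 weeks per the labels (the paper's methods put the lower limit a week earlier), 4 samples from mice homozygous for an Mrp4 knockout on a C57BL/6J background and 4 from wild-type (WT) mice, for which no strain is stated. No treatment before collection of the retinas is given in the labels. The methods mention 3 mice, but it is unclear whether each sample was a pool, so p-values measure the spread between these samples, part of which may be technical. The comparison between the genotypes asks whether other members of the family differ in level when Abcc4 is targeted.

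Proteins of this subfamily bind and split ATP on the inner side of the membrane. Most of them, the multidrug resistance proteins, drive organic anions out of the cell, among them drugs and metabolites joined to glutathione, glucuronic acid or sulfate. MRP4 also exports cyclic nucleotides and prostaglandins, and in the retina it has been placed mainly in the vascular endothelium. Among the 10 genes taken here, Abcc8 and Abcc9 differ from the rest. They encode the sulfonylurea receptors SUR1 and SUR2, which are regulatory subunits of ATP-sensitive potassium channels and not exporters. Cftr, of the same subfamily, was not taken as a member and was counted with the other ABC genes.

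The probe sequences are not among the files used here, and the sequences that can be shown are those upstream of annotated transcription starts. RefSeq windows (GRCm38.p6) were found for 6 of the 10 genes, and 5 of the 8 windows are printed, both of Abcc4, the targeted gene, and 1 each of 3 other members, to show windows rich and poor in CG dinucleotides. Each is the 250 bases before the start, on the strand of the gene, with every CG dinucleotide in capitals. The genome build of the array design (mm9) is a different one, and no probe was placed on these coordinates.
Abcc4, upstream start, chr14:118706220-118706469, minus strand: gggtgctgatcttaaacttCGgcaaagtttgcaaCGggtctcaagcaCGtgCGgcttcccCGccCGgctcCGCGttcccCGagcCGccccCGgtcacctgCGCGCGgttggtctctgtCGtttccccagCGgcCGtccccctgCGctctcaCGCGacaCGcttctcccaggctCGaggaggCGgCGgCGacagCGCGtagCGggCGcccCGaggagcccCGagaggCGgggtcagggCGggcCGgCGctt
Abcc4, downstream start, chr14:118676932-118677181, minus strand: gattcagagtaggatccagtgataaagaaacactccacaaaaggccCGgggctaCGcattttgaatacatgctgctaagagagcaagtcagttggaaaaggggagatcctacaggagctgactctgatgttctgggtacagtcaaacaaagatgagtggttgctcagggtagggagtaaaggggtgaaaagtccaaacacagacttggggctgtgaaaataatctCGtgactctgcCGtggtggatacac
Abcc10, upstream start, chr17:46328024-46328273, minus strand: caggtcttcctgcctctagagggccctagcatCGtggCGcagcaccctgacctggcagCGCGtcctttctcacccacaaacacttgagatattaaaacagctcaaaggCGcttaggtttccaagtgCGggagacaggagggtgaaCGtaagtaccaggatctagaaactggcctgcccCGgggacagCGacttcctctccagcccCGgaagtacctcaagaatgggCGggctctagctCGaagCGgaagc
Abcc2, chr19:43782058-43782307, plus strand: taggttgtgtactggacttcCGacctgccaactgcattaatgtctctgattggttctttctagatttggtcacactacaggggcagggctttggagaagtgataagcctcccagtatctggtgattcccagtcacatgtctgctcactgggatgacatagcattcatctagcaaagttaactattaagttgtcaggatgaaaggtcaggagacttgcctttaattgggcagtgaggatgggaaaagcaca
Abcc12, chr8:86566591-86566840, minus strand: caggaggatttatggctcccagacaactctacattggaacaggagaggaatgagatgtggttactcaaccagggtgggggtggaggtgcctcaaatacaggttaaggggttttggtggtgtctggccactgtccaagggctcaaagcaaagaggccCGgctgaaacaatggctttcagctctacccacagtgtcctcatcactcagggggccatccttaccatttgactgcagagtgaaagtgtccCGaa

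The upstream start of Abcc4 held 35 CG dinucleotides, a number reached by 2.97% of the 32851 windows of this length, and its downstream start held 4. There were 13 at the upstream and 1 at the downstream start of Abcc10, 17 at Abcc5, 12 at Abcc9, 1 at Abcc2 and 2 at Abcc12, where the median window held 6. The letters TGACNNNGC, the core of the antioxidant response element, stood on either strand in 4 of the 8 Abcc windows, namely those of Abcc2 and of the upstream start of Abcc10 and both of Abcc4, and in 10.2% of all windows. These matches describe the letters of the windows and nothing about the binding of a factor.

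Signals were extracted from one-color Cy3 arrays. Between 37343 and 39581 probes per array were well above background by the scanner software's flag, no spot was saturated, and all 8 arrays lay on 1 slide, with the Mrp4-null samples in one row and the WT samples in the other, so that row and genotype cannot be told apart. The 75th percentile of the signal was lowest on the second Mrp4-null array (497) and on the third WT array (514), against 566 to 786 on the other arrays. After quantile normalization, limma called 202 of the 37085 retained probes changed (0.545%) when 1.5-fold or more apart with a Benjamini-Hochberg adjusted p under 0.05. Markers of rods, cones, bipolar, amacrine, horizontal, ganglion and Muller cells all had retained probes. Lens genes, 8 of 8 retained, summed to a normalized signal of 2936 to 23169 on the arrays labelled Mrp4-null and 8293 to 50105 on the WT arrays. Ciliary body genes, 4 of 4 retained, summed to 913 to 1981 and 554 to 844, without overlap, and ganglion cell genes, 6 of 6 retained, to 61151 to 63165 and 64455 to 72572, also without overlap. The brightest genes weigh most in such sums, and the mean log2 signal over the list overlapped for both, at 6.92 to 7.36 against 6.42 to 6.96 for ciliary body and 12.09 to 12.24 against 12.18 to 12.32 for ganglion cell genes. The sums of rod, cone, bipolar, amacrine and horizontal, Muller, astrocyte, pigment epithelium, myeloid, blood and skeletal muscle genes overlapped. Mrp4-null replicate 3 had the highest sum of all arrays for astrocyte genes (565, other arrays of that label 205 to 232). The same held for myeloid genes (21008, other arrays of that label 13501 to 17282). Limma called 0 of these marker genes. The LPE test called 12 of 12 lens probes and 1 of 6 ciliary body probes, where it called 0.626% of all retained probes. An unadjusted limma p under 0.05, found in 6.46% of all retained probes, was found in 5 of 12 lens, 4 of 6 ciliary body, 4 of 14 bipolar, 2 of 13 cone, 2 of 11 Muller, 2 of 8 endothelial and 1 of 10 ganglion cell probes, and in 0 probes of the other marker lists. Of the lens probes, 1 each of Cryaa, Mip and Bfsp1, the last among the 5, passed the filter through the WT arrays alone, where they were higher on average. Xist was well above background on 4 arrays labelled Mrp4-null and 2 WT arrays, and Y-linked probes on 0 and up to 3. By these sex-linked genes, the sex of the mice was not balanced between the labels. The part that these differences have in the Abcc values was not tested.

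Abcc4 was the member that differed. Its only probe, A_52_P630867 (transcript NM_001033336, chromosome 14), had normalized log2 signals of 10.84, 10.71, 10.64 and 10.80 on the 4 arrays labelled Mrp4-null. On the 4 WT arrays it was at 6.62, 7.13, 6.54 and 7.02. All arrays under the Mrp4-null label were thus above all WT arrays, with a gap far wider than the range within either group. The fold change was 15.1 (95% confidence interval 12.1 to 19.0) and the log2 fold change 3.92 (SE 0.14; limma, adjusted p = 1.36e-05). With normexp background correction the log2 fold change was 3.29, below the 95% interval of 3.59 to 4.24 on that scale. An exact two-sided permutation test gave p = 0.0286, which is the smallest value possible with 8 arrays in equal groups. Abcc4, the gene targeted in these mice, was thus higher in the samples labelled as knockouts, and each direction given here follows the labels as deposited. The sources used here do not give the disrupted part of the gene or the place of the probe in it, so the probe does not check the labels. Exchanged labels cannot be told apart here from a probe outside the disrupted part that reads a transcript higher in the knockout. An exchange would turn the sign of the Abcc4 difference and of every other direction given. In whole retina, a change in the number of cells that carry a transcript and a change in its amount per cell cannot be told apart. Endothelial markers, 8 of 8 retained, summed to 13796 to 16255 on the arrays labelled Mrp4-null and 14441 to 16187 on the WT arrays, with overlap.

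**Figure D1:**
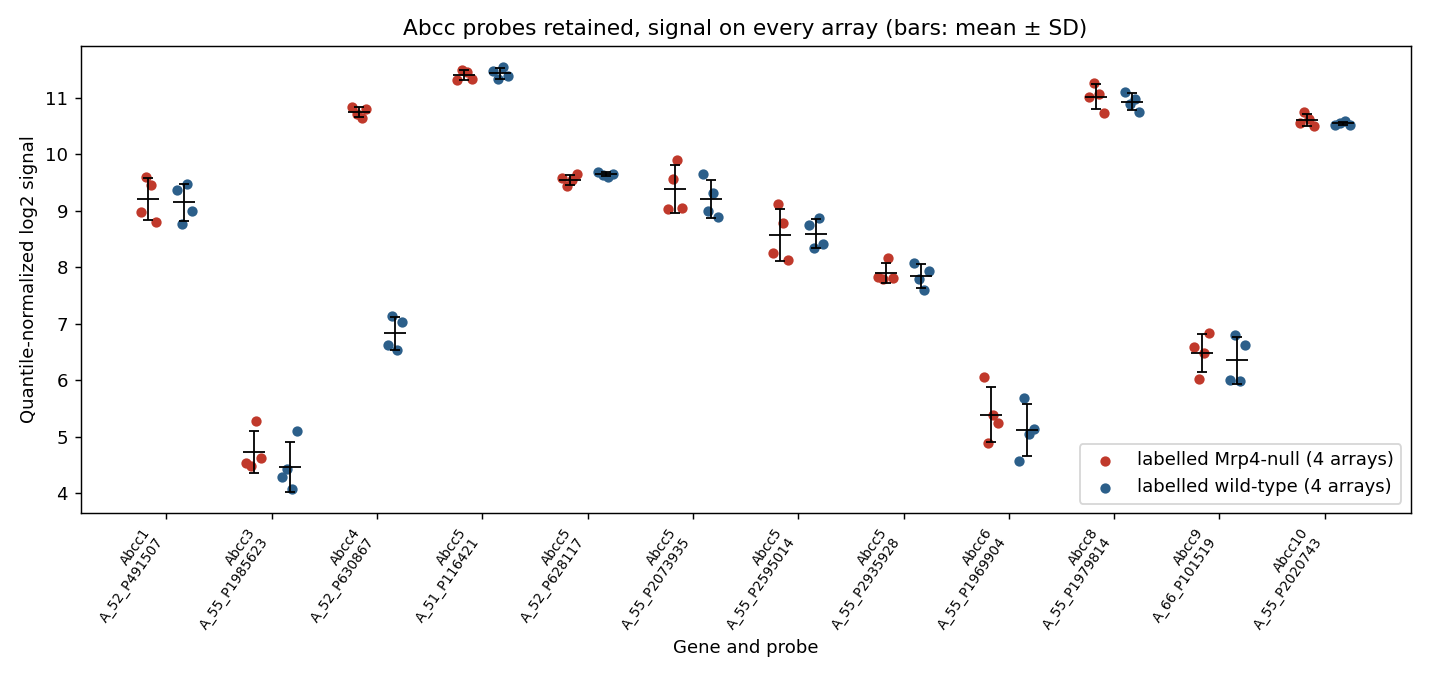
Quantile-normalized log2 signal (vertical axis) of the 12 retained Abcc probes (horizontal axis) on each array, in red for the 4 arrays labelled Mrp4-null and in blue for the 4 WT arrays, with bars for the mean ± SD. The groups are apart for Abcc4, at 10.64 to 10.84 against 6.54 to 7.13, and overlap for each of the other 11 probes.

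Of the 20 probes, 12 passed the filter, which asked that a probe be well above background throughout 1 genotype or both. These stood for 8 genes and were well above background on all 8 arrays. Limma called 1 of the 12, the probe of Abcc4, which was higher under the Mrp4-null label (background 0.545% of retained probes called either way, 0.256% called higher and 0.289% called lower). Among the other 11 probes, 0 were called, and 0 had an unadjusted limma p under 0.05, where 6.46% of retained probes did. The smallest unadjusted limma p among them was 0.246. The local pooled error (LPE) test, coded anew here after the methods, called Abcc4 but 0 of the 11 (background 0.626% of retained probes). It was applied with the same fold and an adjusted p under 0.05. The threshold in the methods is on an LPE p not described as adjusted, and the smallest unadjusted LPE p of the 11 was 0.415. The signals of the 2 genotypes overlapped in all 11, whereas they were apart in 4.79% of retained probes. Their log2 fold changes lay between -0.09 and 0.28 with a median of 0.06, where the median over all retained probes was -0.0093. On average, 8 of the 11 were higher and 3 were lower under the Mrp4-null label, while 46.8% of all retained probes were higher. The 11 are not independent, as 5 of them, among them all 3 lower ones, were of Abcc5. With 1 array left out, the sign turned for Abcc1 and for some probes of Abcc5.

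The confidence intervals show what these arrays could have missed. For 7 of the 11 probes the 95% interval of the fold change, not adjusted for the number of probes, lay within 1.5-fold in both directions, as it did for 77.2% of all retained probes, and for all 11 it lay within 2-fold. The widest upper limits were those of Abcc6, Abcc3, Abcc5 by the probe A_55_P2073935, and Abcc9, at 1.90, 1.77, 1.64 and 1.58. A rise of these sizes in the mean level was therefore within the interval for these probes. The median standard error of the 11 probes was 0.22 on the log2 scale, against 0.13 for all retained probes.

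**Figure D2:**
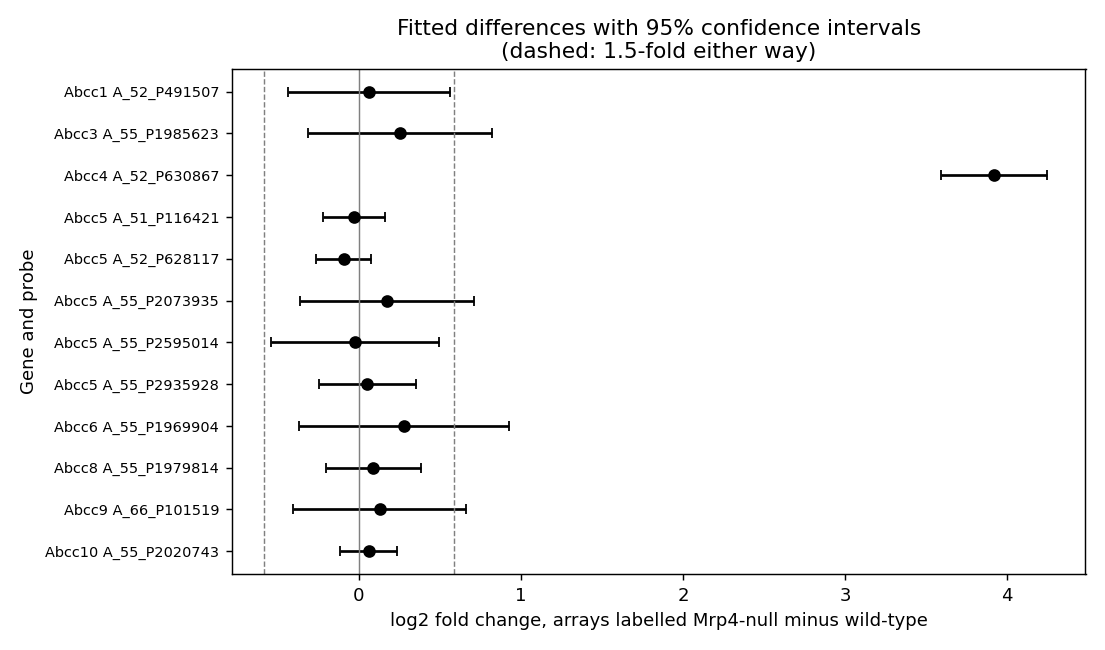
Log2 fold change of the 12 retained Abcc probes, arrays labelled Mrp4-null minus WT (horizontal axis), with 95% confidence intervals from limma over 8 arrays. Abcc4 lies at 3.92, the other 11 lie between -0.09 and 0.28 with intervals that cross 0, and the dashed lines mark a 1.5-fold change either way.

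**Figure D3:**
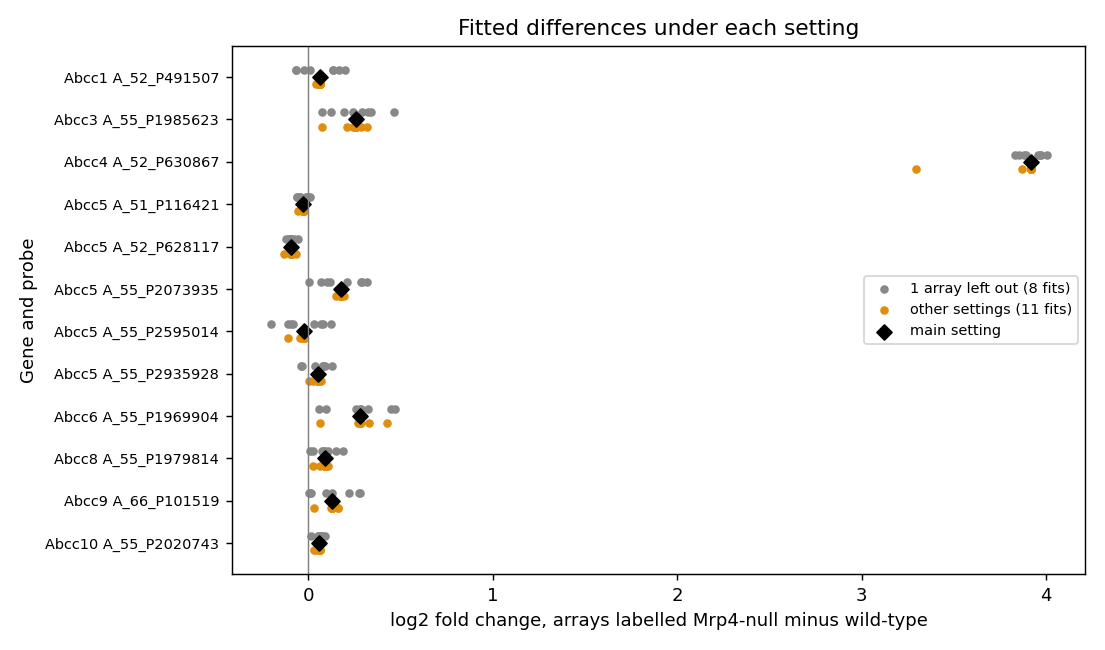
Log2 fold change of the 12 retained Abcc probes, arrays labelled Mrp4-null minus WT (horizontal axis), in black as reported, in grey for 8 fits that each leave out 1 array and in orange for 11 other settings, 10 of the processing or the test and 1 that leaves out together the 2 arrays of lowest signal. Abcc4 stays between 3.29 and 4.00, and with 1 array left out the sign turns for Abcc1 and for 3 probes of Abcc5.

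Among the exporters, Abcc1 (MRP1, chromosome 16, probe A_52_P491507), which carries glutathione conjugates and leukotriene C4, was at 8.98, 9.59, 9.45 and 8.80 under the Mrp4-null label and at 9.37, 8.76, 9.47 and 8.99 in WT. The groups covered nearly the same range. The mean was 9.21 ± 0.38 (SD, n = 4) against 9.15 ± 0.33 (SD, n = 4), a fold change of 1.04 (95% interval 0.737 to 1.47).

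Abcc10 (MRP7, chromosome 17), a broad exporter known for conferring resistance to taxanes, was at 10.55, 10.74, 10.61 and 10.51 under the Mrp4-null label by the probe A_55_P2020743. The WT arrays were at 10.52, 10.55, 10.59 and 10.51. With a fold change of 1.04 (95% interval 0.922 to 1.18), the interval lay well inside 1.5-fold. A second probe, A_51_P464340 for the same transcript, gave processed signals of 2.60 to 8.08 and never reached the flag for well above background.

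Abcc5 (MRP5, chromosome 16), which exports cyclic nucleotides as MRP4 does, had 5 retained probes, 4 for transcript NM_013790 and 1 for NM_176839. The probe A_51_P116421 was at 11.32, 11.49, 11.46 and 11.34 on the arrays labelled Mrp4-null. On the WT arrays it was at 11.48, 11.32, 11.54 and 11.38. The groups overlapped, and the fold change was 0.980 (95% interval 0.859 to 1.12).

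The probe for NM_176839, A_52_P628117, was at 9.58, 9.43, 9.54 and 9.64 under the Mrp4-null label and at 9.69, 9.64, 9.60 and 9.64 in WT. Its fold change of 0.937 (95% interval 0.833 to 1.06) was the lowest of the 11, and its second Mrp4-null array lay below the others. The remaining 3 probes of Abcc5 had fold changes of 1.13, 0.983 and 1.04, with overlapping groups. In the last of these, A_55_P2935928, Mrp4-null replicate 3 was at 8.17 and the other arrays of that label at 7.79 to 7.82.

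The probes of Abcc5 did not all follow each other from array to array. Over 8 arrays, 10 pairs of probes were compared, and the highest correlation was between A_51_P116421 and A_55_P2595014 (Pearson's r = 0.922, exact permutation p = 0.00518, adjusted p = 0.0518; Spearman's rho = 0.881, exact permutation p = 0.00724, adjusted p = 0.0724). Without the 2 arrays farthest from the median of the first probe, r was 0.940. Both probes shared an order of the arrays that was found in 18.4% of 37075 retained probes, so the correlation need not be particular to Abcc5. None of the 10 pairs had an adjusted p under 0.05, and 4 had a negative r. These signs were not stable when 2 arrays were left out in the same way. The negative r of -0.02, -0.40 and -0.59 became 0.49, 0.48 and 0.20, and -0.34 became -0.53. The r of A_55_P2073935 with A_55_P2935928 went from 0.54 to -0.55.

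Abcc3 (MRP3, chromosome 11), which exports glucuronides and bile salts, gave signals close to the background. By the probe A_55_P1985623 it was at 4.52, 4.48, 5.27 and 4.62 on the arrays labelled Mrp4-null. The WT arrays were at 4.28, 4.43, 4.08 and 5.10, so that 1 array in each group stood above the other 3. The fold change was 1.19 (95% interval 0.805 to 1.77). A second probe for the same transcript, A_52_P622067, had processed signals of 2.79 to 3.13 and the flag for well above background on 0 arrays.

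Abcc6 (MRP6, chromosome 7) is the gene whose loss causes ectopic mineralization in pseudoxanthoma elasticum, a disease that also affects the eye. The probe A_55_P1969904 was at 6.05, 4.89, 5.38 and 5.24 under the Mrp4-null label and at 4.57, 5.69, 5.05 and 5.14 in WT. The highest array of each group was more than 1 log2 unit above the lowest of the same group. The fold change of 1.21 (95% interval 0.772 to 1.90) was the highest of the 11, and its interval was the widest.

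The sulfonylurea receptors were also detected on every array. Abcc8 (SUR1, chromosome 7) was at 11.02, 11.27, 11.06 and 10.73 under the Mrp4-null label and at 11.11, 10.89, 10.98 and 10.74 on the WT arrays by the probe A_55_P1979814. The groups overlapped, with a fold change of 1.06 (95% interval 0.867 to 1.31). Kcnj11, the pore subunit that pairs with SUR1 and another gene on chromosome 7, differed by 0.17 on the log2 scale (SE 0.17; limma, adjusted p = 1.00).

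Abcc9 (SUR2, chromosome 6, probe A_66_P101519), a gene known from vascular mural cells, was at 6.58, 6.02, 6.48 and 6.84 under the Mrp4-null label. The WT arrays were at 6.01, 6.79, 5.99 and 6.62. The fold change was 1.09 (95% interval 0.755 to 1.58). Kcnj8, its pore partner on chromosome 6, differed by -0.14 on the log2 scale (SE 0.13; limma, adjusted p = 1.00). Mural cell markers, 7 of 8 with a retained probe, summed to 3380 to 3999 under the Mrp4-null label and 3585 to 4014 in WT, which also overlapped.

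The other 8 probes were not retained. Abcc2 (MRP2, chromosome 19), known as the conjugate exporter of the bile canaliculus, had 1 probe, A_51_P277745, with processed signals of 2.61 to 3.43 on the arrays labelled Mrp4-null and 2.49 to 2.91 on the WT arrays. Abcc12 (MRP9, chromosome 8) had 3 probes, A_52_P426435, A_55_P2050483 and A_66_P134361, with signals of 2.62 to 10.3 over all 8 arrays. For these 2 genes, no probe was well above background on any array, where the lowest signal well above background was 11.5 to 13.8 per array. A second probe of Abcc6, A_66_P109769, was well above background on 2 arrays labelled Mrp4-null and 0 WT arrays, with processed signals of 4.38 to 15.5 and 8.29 to 10.7. A second probe of Abcc8, A_52_P218188, was at 2.39 to 2.79, although its other probe for the same transcript was bright. Levels of different probes were not set against each other, since probes differ in how strongly they hybridize, and the members can therefore not be put in an order of level.

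**Figure D4:**
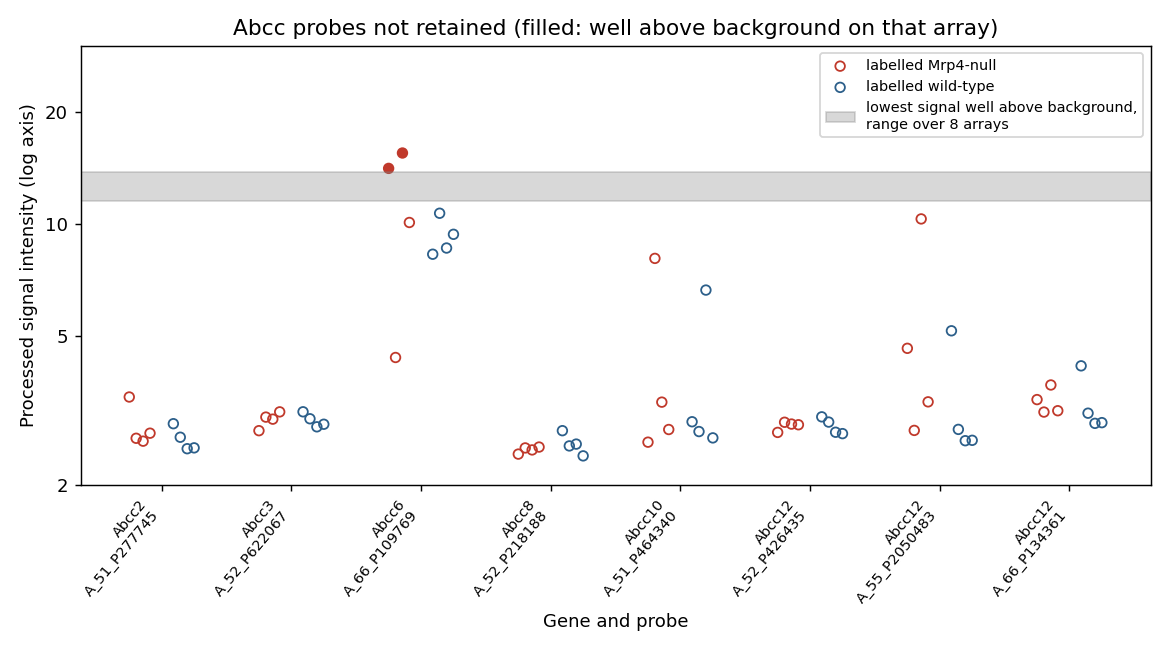
Processed signal intensity (vertical log axis) of the 8 Abcc probes that were not retained (horizontal axis) on each of the 8 arrays, red for those labelled Mrp4-null and blue for WT. Filled points, 2 of them for Abcc6, were well above background on their array, and the grey band marks the lowest signal well above background, 11.5 to 13.8.

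Other genes of the same pathways were followed in the same fit, and limma and the LPE test called 0 of them in either direction (background 0.545% and 0.626% of retained probes). An unadjusted limma p under 0.05, counted for each list, was found in 6.46% of all retained probes. Of 38 ABC genes outside the 10 taken here, not all of which encode transporters, 35 had a retained probe. The median log2 fold change was 0.0061 over their 46 probes, 1 of which had an unadjusted limma p under 0.05. That probe was for Abca8b, at -0.23 on the log2 scale (SE 0.07; limma, adjusted p = 0.450). This gene, and the other genes named from these lists, were picked for their role or their p-value after the values were seen. Abcb1a, for P-glycoprotein, was at a log2 fold change of 0.01 (SE 0.18), and Abcg2, for the breast cancer resistance protein, was at 0.03 (SE 0.08). Both transporters are efflux pumps of the blood-retinal barrier.

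Genes for scaffold proteins that hold transporters at the membrane had a retained probe in 7 of 7 cases, and 1 of their 11 probes had an unadjusted limma p under 0.05. The probe of Pdzk1 passed the filter through the Mrp4-null label alone, being well above background on 4 arrays of that label and 0 WT arrays. The probe with this p was for Slc9a3r1, whose product NHERF1 binds the tail of MRP4, and was at -0.33 on the log2 scale (SE 0.14; limma, unadjusted p = 0.0480, adjusted p = 0.768), while the other probe of this gene was at -0.06. Among 10 genes for transcription factors and their partners that act on Abcc genes, 9 had a retained probe and 0 of their 12 probes had an unadjusted limma p under 0.05. Nfe2l2, for the oxidative stress regulator NRF2, was at -0.05 (SE 0.13).

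Of 14 genes of glutathione synthesis and conjugation, 11 had a retained probe, and 2 of their 16 probes had an unadjusted limma p under 0.05. Both were for Sult1a1, a sulfotransferase. The probe A_51_P321341 was at 9.10 ± 0.08 (SD, n = 4) under the Mrp4-null label and 8.61 ± 0.07 (SD, n = 4) in WT. The difference of 0.49 on the log2 scale (SE 0.08; limma, adjusted p = 0.0362) was under the 1.5-fold threshold. By its second probe it was 0.38 (SE 0.08; limma, adjusted p = 0.153). The adjusted p of the first probe ranged from 0.0399 to 0.161 in limma with 1 array left out, and from 0.0143 to 1.00 over all settings tried, the LPE test included.

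The named genes with the most similar pattern to Abcc4 over the 8 arrays were Myom2, Pdzd8, Masp2, Kdf1 and Cd52, with Pearson's r of 0.989 to 0.995, picked as the highest of 23643 named probes. Myom2 encodes a sarcomere protein, Masp2 a protease of the lectin complement pathway and Cd52 a surface glycoprotein of leukocytes. The 5 genes lay on chromosomes 8, 19 and 4, and were called higher under the Mrp4-null label, with log2 fold changes of 1.26 to 3.73. Masp2 was well above background on 4 arrays labelled Mrp4-null and 2 WT arrays, and so passed the filter through the former alone. With normexp background correction the log2 fold change was 2.26 in place of 3.73 for Myom2, 0.92 in place of 2.67 for Masp2 and 0.93 in place of 1.46 for Kdf1. The lowest r, between -0.995 and -0.989, were those of Ctxn1, Zfp330, Nek3 and Agpat5 on chromosome 8 and Pcdh17 on chromosome 14, all called lower. Agpat5 was at a log2 fold change of -2.91, and at -2.23 with normexp. Because Abcc4 falls into separate levels for the 2 genotype labels, these values mainly describe the split between them. None of the 10 genes was a member of the family.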

How the data were processed

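Retinal RNA of 8 samples was measured on one-color Agilent arrays, and the authors deposited the scanner output of Agilent Feature Extraction 11.0.1.1. Its processed signal intensity is the signal after that software's background subtraction and spatial detrending, with no normalization between arrays. A table of values that the authors also deposited held the same processed intensity per probe, within 0.01 on the log2 scale for 99.99% of values. Control spots and spots with outlier flags (78 to 143 per array) were left out, and log2 signals were averaged per probe. Probes were retained (37085) if all measured arrays of either genotype (3 or more, with 2 or more in the other) were flagged well above background, and were normalized by the quantile method, as in the paper's methods.

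Genotypes were compared with limma 3.58.1 in R 4.3.3, with Benjamini-Hochberg adjustment of p across the 37085 probes, and the code was tested on simulated data. Limma takes the place of the LPE test of the methods, which was an alternative. The LPE test was coded anew, as no maintained tool was at hand, and may differ from the one used for the paper. Its p compared medians and its fold change compared means. Unversioned RefSeq accessions named 32994 probes (58.3%), and a probe of an Abcc gene with an unmatched accession would be missed. Each probe was kept apart. The rule for naming took every Abcc probe, the potassium channel pore genes, any called gene of the lists (0 were called), and the 5 genes with the highest and the 5 with the lowest correlation with Abcc4. Other genes of the lists were named after their values were seen. The lists held other ABC genes, scaffold proteins, regulators, conjugation and cell type markers. The members and lists were chosen with earlier results of these data known. Alternatives were other normalizations, background corrections, filters and tests, and leaving out arrays. The number of arrays limits the precision.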

Additional observations from a re-analysis of the deposited data

Results flagged for a closer look

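In the 24 groups of 4 arrays formed by the retained Abcc probes, 1 group had an array far from the others, judged by the distance to its nearest neighbour as a share of the whole range (Dixon's 95% critical value). Chance gives about 1 in 20 groups. This was Abcc5 by the probe A_55_P2935928, which was at 8.17 on Mrp4-null replicate 3 and at 7.79 to 7.82 on the other 3 (ratio 0.920), and without that array its log2 fold change was -0.039 in place of 0.05.

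Abcc6 had a second probe, A_66_P109769, which is outside the comparison because it did not pass the filter. It was well above background on 2 arrays labelled Mrp4-null, with processed signals of 14.1 and 15.5, and on 0 WT arrays, where the signals were 8.29 to 10.7. The other arrays labelled Mrp4-null were at 4.38 and 10.1, so the groups overlapped, and with no filter limma gave a log2 fold change of -0.09 (adjusted p = 1.00).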

How the results depend on the processing

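The fold changes of the 12 retained Abcc probes were refitted under 19 settings. Abcc4 was called in all 19, with log2 fold changes of 3.29 (normexp background correction) to 4.00 and adjusted p from 9.12e-72 (LPE test) to 0.00354 (sample number as a block). No other retained Abcc probe was called in any of them (smallest adjusted p 0.656). The 11 settings that kept all arrays, or left out together the 2 arrays of lowest signal, which was chosen after seeing the data, changed no direction. The LPE test, the intensity trend with robust variances and the sample number as a block could not change one. They leave the fold change of these probes as it was and alter only the test. With 1 array left out, the sign turned for Abcc1 (-0.069 to 0.20) and for Abcc5 by the probes A_51_P116421 (-0.064 to 0.0072), A_55_P2595014 (-0.20 to 0.12) and A_55_P2935928 (-0.039 to 0.13). The count of all probes called, 202, fell to 71 with the sample number as a replicate block and to 124 without the 2 dim arrays, and was 117 to 183 with 1 array left out, lowest without WT replicate 2 (130), 3 (126) or 4 (117). A fold change of 1.5 with no test was passed by 699 probes. Samples with the same number share only a number, as their deviations from the group means correlated at -0.69 to 0.41, and 0 of 4 Mrp4-null arrays correlated best with the WT array of its own number. The cause of these shifts was not tested.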

Other observations

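Of the 12 retained Abcc probes, 7 followed 1 of 2 opposite orders of the arrays within both labels, and the other 5 (Abcc3, Abcc6, Abcc10 and 2 probes of Abcc5) followed neither. The orders were noticed after the values were seen. The probes of Abcc1 and Abcc8 and 3 of the 5 probes of Abcc5 were higher on arrays 2 and 3 than on arrays 1 and 4 under the Mrp4-null label, and higher on WT arrays 1 and 3 than on WT arrays 2 and 4. The first order was found in 18.4% of the 37075 retained probes that no array lacked. The probes of Abcc4 and Abcc9 had the opposite order within both labels, as did 19.4% of these probes.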
